A study of Mus musculus with 8 samples.

Results

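Bmpr1a, Aspa, Obsl1, Thbs4, Arhgef25, Il22ra2 and the IgG2a heavy chain transcript BC019489 are 7 genes that an earlier look at these arrays had picked out as lower in Vav-Etv2 mice than in controls in both sorted bone marrow populations. They were found here as every non-control probe whose name in the files is 1 of these 7 symbols, which gave 8 probes of 55661, with 2 for Obsl1. All 7 were among the 23249 genes and transcripts tested, but 6 of them, all but Il22ra2, could enter through the groups in which they were high, since the filter asked for 2 or more arrays with a signal flagged as well above background. The genes were chosen by the log2 difference between Vav-Etv2 and control in KSL and in Gr cells, so that difference is given below as a description, with no test. Differences between the cell types played no part in the choice and were tested.

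The study hybridised RNA of KSL cells, the c-Kit and Sca-1 positive, lineage negative fraction that holds blood stem and progenitor cells, and of Gr-1+/Mac-1+ (Gr) cells, the granulocyte fraction, to 1-colour Agilent arrays. Both populations were sorted from controls and Vav-Etv2 animals, 2 arrays per group, all from bone marrow of mice aged 6 weeks. In Vav-Etv2 mice an Etv2 transgene is switched on by a Vav-iCre transgene, so that Etv2, an ETS family transcription factor of embryonic blood and vessel precursors, is made in blood cells. The labels give the strain of every sample as mixed (B6/CBA and others) and name no genotype for the controls beyond control. They do not say whether an array holds 1 animal or a pool. The p-values therefore reflect no more than the spread from array to array, which may be technical in KSL cells. In Gr cells that spread takes in a difference in sex-linked RNA between the replicates, given below.

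The 7 genes belong to separate systems. Bmpr1a is a type I receptor for bone morphogenetic proteins (BMPs): with a type II receptor it binds the ligand and phosphorylates Smad1, Smad5 and Smad9, which with Smad4 turn on targets such as the Id genes, and in bone marrow it is best known for its part in the stem cell niche. Il22ra2 is a secreted receptor that binds the cytokine IL-22 and keeps it from its cell-surface receptor, Thbs4 is a secreted matrix protein of the thrombospondin family, and Arhgef25 loads small GTPases of the cytoskeleton with GTP downstream of Gq-coupled receptors. Obsl1 is a cytoskeletal adaptor of the 3M complex, with Cul7 and Ccdc8, Aspa splits N-acetylaspartate into acetate and aspartate, and BC019489 encodes part of the heavy chain that plasma cells secrete as IgG2a.

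The probes below are what was measured, each as the files give it, 5′ to 3′, with positions on build mm9 as the files give them. The exon or untranslated region under each probe was not looked up, since no mm9 annotation was used here. For 6 probes the first 30 of 60 bases are shown, and the other 3 are whole. The Bmpr1a probe lies on the minus strand at chr14:35224339-35224398, Aspa at chr11:73119051-73119110 (minus), Thbs4 at chr13:93521565-93521624 (minus), Arhgef25 at chr10:126619611-126619670 (minus), Il22ra2 at chr10:19354355-19354414 (plus) and BC019489 at chr12:114525496-114525555 (minus). The Obsl1 probe used for tests is placed over 854 genomic bases, chr1:75493829-75494682 (minus), and the other over 740, chr1:75482488-75483227, both wider than the 60 bases of a probe. The last line is the neighbouring IgG2c feature, ENSMUST00000103416, at chr12:114525600-114525659, which lies 44 bases from the BC019489 probe and is set beside it further down. Capitals mark the letters AATAAA, a polyadenylation signal, at the end of the printed BC019489 stretch, and the stop triplet TGA that ends the IgG2c probe.
Bmpr1a: gattcatcttgatatgtaacactaagtgta
Aspa: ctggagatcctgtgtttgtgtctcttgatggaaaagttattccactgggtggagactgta
Obsl1, tested probe: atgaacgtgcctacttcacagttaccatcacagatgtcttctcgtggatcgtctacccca
Obsl1, other probe: ctgctggtagatggtgactagaggactgaa
Thbs4: tatcatggcttttcttttaccagcccaaat
Arhgef25: aggatgagggcagggaccagatagaaatta
Il22ra2: gctttgactttgtttgcttgggttttccct
BC019489: ccatatccatgcatcccttgtataAATAAA
IgG2c feature: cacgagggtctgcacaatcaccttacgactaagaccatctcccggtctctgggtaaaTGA

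Levels are log2 processed signals minus the 75th percentile of the same array, so a level of 0 is that array's 75th percentile and a step of 1 is a doubling of signal. Levels are compared only within a probe. The 75th percentile lay between 136.3 and 300.2 signal units, 47.7% to 55.5% of probes were well above background, and no probe was saturated. Across all tested features the SD of the difference between the 2 arrays of a group was 0.556 for KSL controls and 0.897 for KSL Vav-Etv2 cells, and 1.05 and 0.961 for the same groups of Gr cells. All 4 KSL arrays lie on 1 row of the slide and all 4 Gr arrays on the other, so slide row and cell type cannot be told apart.

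Several arrays stood apart from their labels or from their group. The transgene's own gene, Etv2, was at -4.37 and -4.73 in KSL controls and -4.48 in Gr control 1, none well above background. The 2 KSL and 2 Gr arrays of Vav-Etv2 mice read 0.19, -1.24, -0.55 and -1.29. The array labelled Gr control 2 was at -0.54, inside the Vav-Etv2 range, so the Gr differences of the 7 genes that can be read are given with and without it. The Gr values of all other genes and of the marker lists include that array unless stated. The Gr arrays also split by replicate number in sex-linked RNA. Xist, made from the inactive X chromosome of females, was at 0.27 and 0.35 in replicate 1 of control and Vav-Etv2 and at -7.10 and -6.82 in replicate 2, while all 4 KSL arrays lay between 2.12 and 2.69. For the 7 genes and IgG2c the Gr differences within a replicate number are therefore given too. Kit was at 5.15 in both KSL controls and at 1.84 to 2.04 in Gr controls, and Itgam, which encodes a chain of Mac-1, was at 4.71 and 5.19 in KSL controls and at 5.97 and 7.14 in Gr controls. Ly6a, which encodes Sca-1, was higher in Gr controls, at 4.48 and 6.18, than in KSL controls, at 3.59 and 3.65. In KSL Vav-Etv2 cells Kit was at 3.45 and 4.32, Ly6a at 2.26 and 3.09 and Itgam at 4.54 and 4.59. Each lay below both KSL controls, as 25.4% of all tested features did. All 13 tested neutrophil markers were well above background on at least 1 KSL control array. Camp, a granule gene of that list, was at 2.51 in KSL Vav-Etv2 array 1 and at 7.15 to 7.21 in the other 3 KSL arrays.

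**Figure D1:**
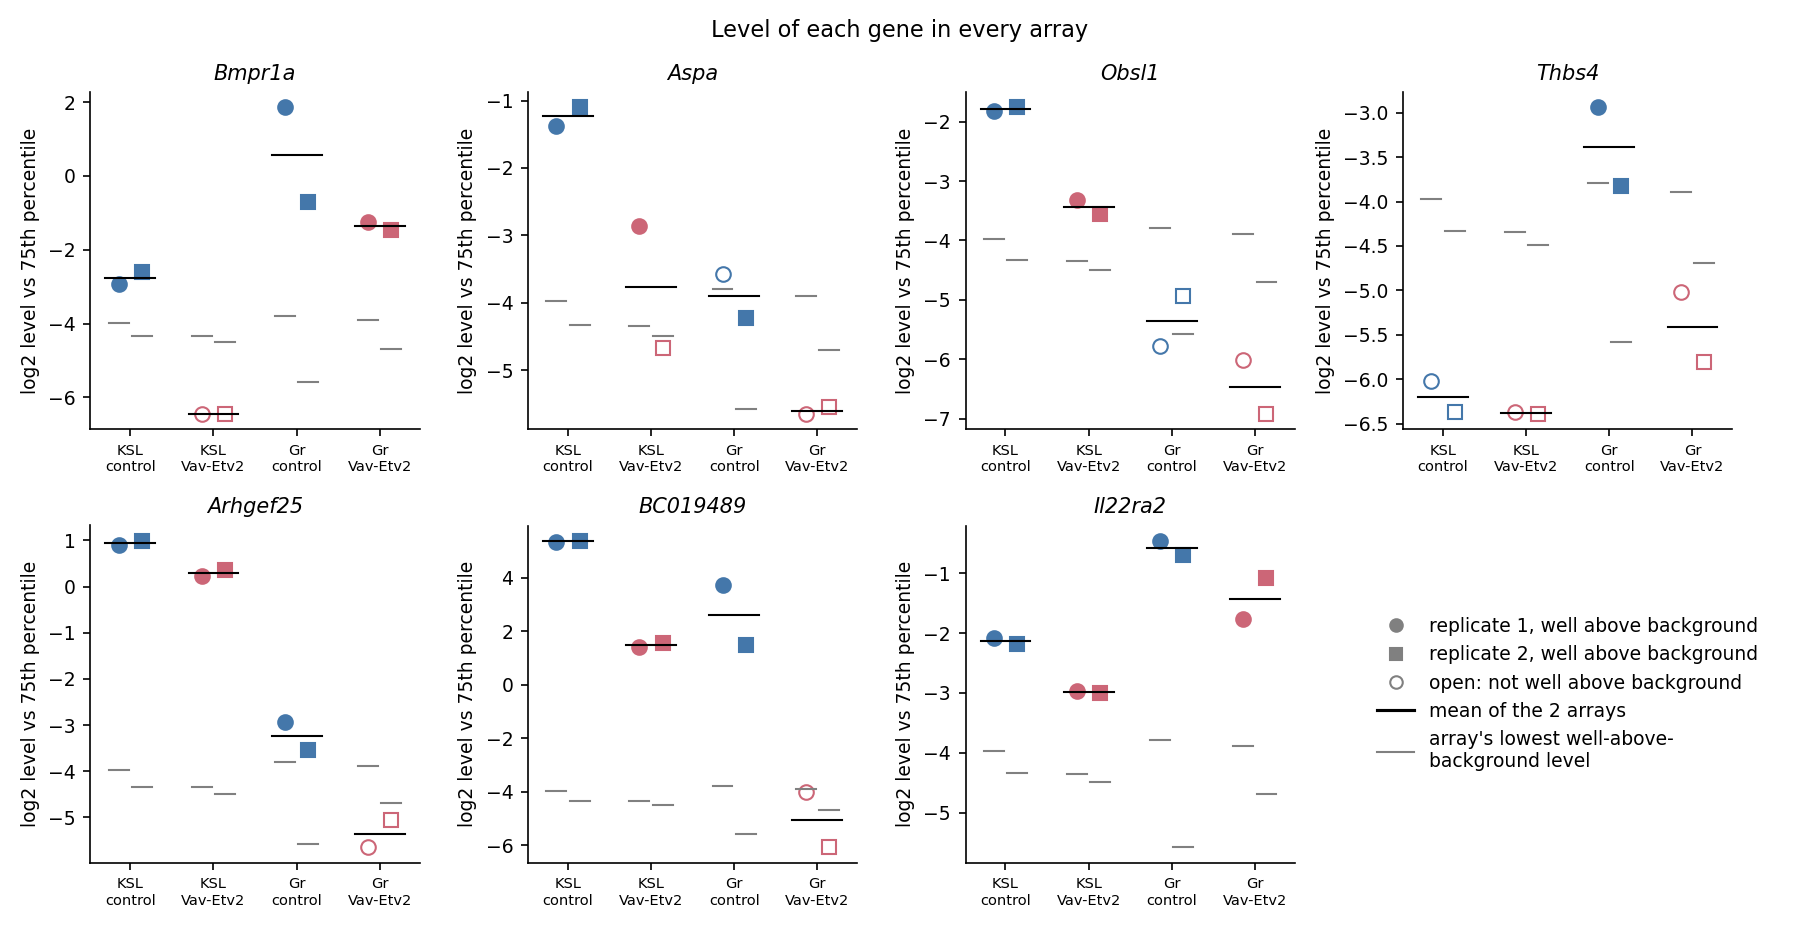
Level of each of the 7 genes (log2 signal minus the array's 75th percentile, a separate vertical scale for each gene) in the 2 arrays of each group, with the group mean as a black line. Open symbols are arrays where the probe was not well above background, and short grey lines mark the lowest level so flagged on that array. BC019489 is at 5.36 and 5.39 in KSL controls, at 1.40 and 1.57 in KSL Vav-Etv2 cells and at open symbols in Gr Vav-Etv2 cells, while all 4 KSL points of Thbs4 are open.

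Both Vav-Etv2 arrays lay below both controls for 6 of the 7 genes in KSL cells (25.4% of all tested features did so) and for 7 of 7 in Gr cells (5.80% of all). In both populations together 6 of 7 did, against 408 of 23249 features, or 1.75%. These counts are what the choice of genes fixed and support nothing. The median difference of the 7 genes was -1.65 in KSL and -1.95 in Gr cells, beside 0.00 and -0.01 over all tested features. Only Il22ra2 was well above background on all 8 arrays, so for the other 6 at least 1 group has only an upper bound. Where the lower group had no array well above background, a fold is written as at least, computed against the dimmest signal that an array flagged as well above background, or the probe's own signal if higher.

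The data go against the description lower in both for 2 of the 7. Thbs4 was not well above background on any KSL array, and its signal there had been replaced by the scanner software's surrogate value on all 4 arrays. Obsl1 was not well above background on any Gr array. For Thbs4 a difference can therefore be read in Gr cells only, and for Obsl1 in KSL cells only. The Gr difference of Aspa is little better, since only the array labelled Gr control 2 was well above background for it among the Gr arrays.

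Bmpr1a, the BMP receptor, was at -2.94 and -2.61 in KSL controls and at -6.44 and -6.45 in KSL Vav-Etv2 cells. The 2 Vav-Etv2 values are surrogates of signals not well above background, whereas the controls read 25.4 and 43.7 processed signal units, so the receptor's RNA was seen in both controls and in neither Vav-Etv2 array. The difference was -3.67, or at least 3.13-fold lower. With bulk RNA, fewer cells of a type that makes the RNA and less RNA per cell cannot be told apart, here and for every gene below.

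In Gr cells Bmpr1a was well above background on all 4 arrays, at 1.86 and -0.70 in controls 1 and 2 and at -1.26 and -1.47 in the Vav-Etv2 arrays. Control 1, at 495 signal units, stood far above the other 3, which lay between 62.2 and 185. The difference was -1.95, a 3.85-fold lower level. It rests largely on Gr control 1: the difference was -3.12 within replicate 1, -0.77 within replicate 2, -3.23 without the array labelled Gr control 2 and -0.66 without control 1. The groups run from Gr control, at a mean of 0.58 ± 1.81 (SD, n = 2), through Gr Vav-Etv2, at -1.36 ± 0.14, and KSL control, at -2.77 ± 0.23, to KSL Vav-Etv2, at -6.44 ± 0.01, and the difference between the 2 Gr groups, next to each other in that order, was little larger than the SD of the Gr controls.

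Il22ra2, the soluble IL-22 receptor, was at -2.08 and -2.18 in KSL controls and -2.97 and -3.00 in KSL Vav-Etv2 cells. In Gr cells it was at -0.46 and -0.70 in controls and at -1.77 and -1.08 in Vav-Etv2 arrays. Neither pair of groups overlapped, and the difference was -0.85 in each population, a 1.81-fold lower level in KSL and a 1.80-fold lower level in Gr cells. The KSL arrays of a group lay within 0.10 of each other, while the Gr difference was -1.31 within replicate 1, -0.38 within replicate 2 and -0.97 without the array labelled Gr control 2. Without Gr Vav-Etv2 array 1 it was -0.50. The order was Gr control (-0.58 ± 0.17), Gr Vav-Etv2 (-1.43 ± 0.48), KSL control (-2.13 ± 0.07) and KSL Vav-Etv2 (-2.98 ± 0.02), each given as mean ± SD with n = 2.

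Thbs4, the secreted matrix protein, was at -2.94 and -3.83 in Gr controls, both well above background, and at -5.02 and -5.80 in Gr Vav-Etv2 cells, neither well above background. In signal units the controls read 17.8 and 21.2 and the Vav-Etv2 arrays 4.61 and 4.89, so this is a dim probe throughout. The Gr level was at least 1.88-fold lower (log2 difference -2.03), with -2.08 within replicate 1 and -1.97 within replicate 2. Without the array labelled Gr control 2 the difference was -2.47, or at least 2.56-fold lower. The KSL values, -6.02 and -6.37 in controls and -6.37 and -6.39 in Vav-Etv2 cells, are surrogates and give no fold.

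Arhgef25, the guanine nucleotide exchange factor, was at 0.89 and 0.99 in KSL controls and at 0.22 and 0.35 in KSL Vav-Etv2 cells, a 1.57-fold lower level (difference -0.65) on 4 arrays well above background. The 2 Gr controls, both well above background, read -2.94 and -3.53, and the 2 Gr Vav-Etv2 arrays, neither above it, read -5.65 and -5.06. The Gr level was at least 2.08-fold lower (difference -2.12), with -2.71 within replicate 1 and -1.52 within replicate 2. Leaving out the array labelled Gr control 2 gave a difference of -2.41, at least 2.55-fold lower. KSL control (0.94 ± 0.07), KSL Vav-Etv2 (0.29 ± 0.10), Gr control (-3.24 ± 0.42) and Gr Vav-Etv2 (-5.36 ± 0.42, all SD with n = 2) followed each other with no overlap.

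Obsl1, the 3M complex adaptor, was at -1.83 and -1.76 in KSL controls and at -3.32 and -3.55 in KSL Vav-Etv2 cells by the tested probe, all 4 well above background. The level was 3.13-fold lower (difference -1.65), and the groups were 1.50 apart at their nearest arrays. The other probe read -3.01 and -3.17 in controls and -4.62 and -5.14 in Vav-Etv2 cells, where it was not well above background, so by that probe the level was at least 2.51-fold lower. In Gr cells the tested probe read -5.78 and -4.93 in controls and -6.01 and -6.92 in Vav-Etv2 cells, with no array well above background and hence no fold. The Gr difference of -1.11 was -0.23 within replicate 1, -1.99 within replicate 2 and -0.68 without the array labelled Gr control 2. The other probe read -5.96 and -5.46 against -5.29 and -6.85, and its Gr groups overlapped. KSL controls (-1.79 ± 0.05) and KSL Vav-Etv2 cells (-3.44 ± 0.16, both SD with n = 2) thus lead the order of Obsl1 levels, and the Gr groups, both below background, have no order.

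Aspa, the N-acetylaspartate hydrolase, was at -1.37 and -1.10 in KSL controls and at -2.86 and -4.67 in KSL Vav-Etv2 arrays 1 and 2, the second not well above background. Both Vav-Etv2 arrays lay below both controls, but they were 1.81 apart. The level was 5.78-fold lower (difference -2.53) with only 1 of the 2 Vav-Etv2 arrays measured above background, and the difference was -1.63 without KSL Vav-Etv2 array 2 and -3.43 without array 1. In Gr cells Aspa was at -3.58 and -4.23 in controls, of which only the array labelled Gr control 2 was well above background. The Gr Vav-Etv2 arrays read -5.65 and -5.55, neither above it. The Gr difference was -1.69, with -2.07 within replicate 1 and -1.32 within replicate 2. It gives no least fold, because Gr control 1 was not well above background. The difference was -2.02 without the array labelled Gr control 2, which leaves no Gr control well above background. In the order of levels KSL controls came first (-1.24 ± 0.19), KSL Vav-Etv2 cells (-3.77 ± 1.28) and Gr controls (-3.91 ± 0.46, all SD with n = 2) overlapped, and Gr Vav-Etv2 cells came last.

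BC019489, the IgG2a heavy chain transcript, was at 5.36 and 5.39 in KSL controls and at 1.40 and 1.57 in KSL Vav-Etv2 cells, a 14.8-fold lower level (difference -3.89). In signal units this was 8010 and 11100 against 563 and 640. In Gr cells it was at 3.73 and 1.48 in controls 1 and 2 and at -4.03 and -6.09 in Vav-Etv2 cells, where it was not well above background on either array. The Gr level was at least 119-fold lower (difference -7.66), with -7.76 within replicate 1 and -7.57 within replicate 2. Leaving out the array labelled Gr control 2 gave a level at least 260-fold lower (difference -8.79). The Gr control mean was 2.60 ± 1.59 and the KSL Vav-Etv2 mean 1.49 ± 0.12 (SD, n = 2), so these neighbours in the order of levels overlapped.

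The IgG2c feature 44 bases away, whose sequence is printed under that of BC019489, showed a like pattern. IgG2a and IgG2c are forms of the same heavy chain gene that differ between mouse strains, and the mice here were of mixed strain. IgG2c was at 4.50 and 4.37 in KSL controls and at -1.02 and -0.94 in KSL Vav-Etv2 cells, a 42.7-fold lower level. In Gr cells it was at 1.19 and 1.67 in controls and at -4.18 and -4.86, not well above background, in Vav-Etv2 cells, at least 52.9-fold lower, or at least 44.8-fold without the array labelled Gr control 2. Within replicate 1 the Gr difference was -5.37 and within replicate 2 it was -6.53. The sequences of IgG2a and IgG2c RNA were not compared here. Whether RNA of either binds both probes was not tested, so the 2 features may not be independent.

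Other IgG features of the chromosome 12 cluster had lower means too, while the IgM and IgD features did not share the pattern. ENSMUST00000103418, an IgG2b feature, was at 4.81 and 4.80 in KSL controls and at 1.11 and 1.24 in KSL Vav-Etv2 cells. In Gr cells it was at 3.24 and -0.99 in controls and at -3.64 and -4.91 in Vav-Etv2 cells. The IgM feature ENSMUST00000103426 went from 6.74 and 6.85 to 4.69 and 5.85 in KSL cells and was at 3.40 and 3.32 in Gr controls against 3.62 and 3.81 in Gr Vav-Etv2 cells, so IgM was not lower in Gr cells. The IgD feature ENSMUST00000103424, well above background on all 8 arrays, differed by -0.16 in KSL and 0.64 in Gr cells. Of the 20 tested features within 250000 bases of the BC019489 probe, 4 were lower in both populations with no overlap, the IgG2c and IgG2b features, ENSMUST00000103421 (IgG1) and ENSMUST00000103414, the last with no Gr array well above background. None was for the other 6 genes, which had between 4 and 28 tested features within that distance.

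**Figure D2:**
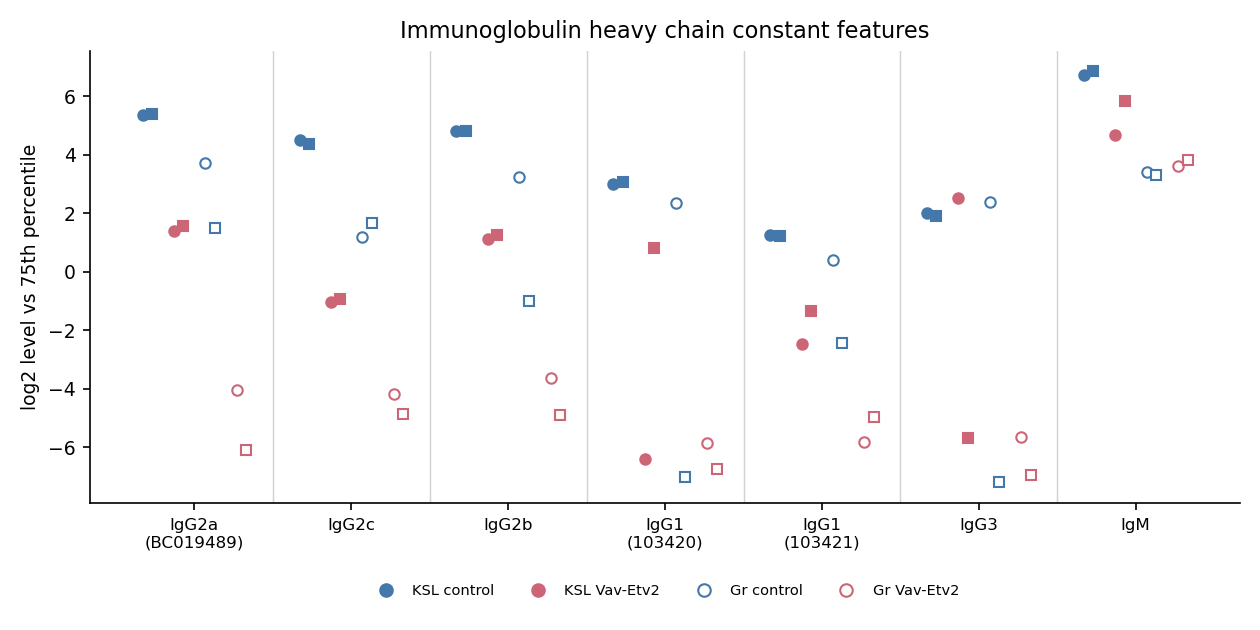
Level (log2 signal minus the array's 75th percentile) of 7 immunoglobulin heavy chain constant features on the 8 arrays, filled symbols for KSL and open for Gr, blue for control and red for Vav-Etv2, circles for replicate 1 and squares for replicate 2. IgG2a (BC019489) and IgG2c are low on both Vav-Etv2 arrays of each population, the 2 IgG1 features and IgG3 scatter widely between arrays of a group, and Gr IgM lies between 3.32 and 3.81 on all 4 arrays.

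Some markers of antibody-secreting cells were lower where BC019489 was and others were not, and their part in the result was not tested. Of the 10 plasma cell markers 5 lay below 0 and 5 above in KSL cells (median difference 0.20), and 4 below and 6 above in Gr cells (median 0.08). Their summed linear level, each relative to the array's 75th percentile, was 106 to 110 in KSL controls and 42.1 to 61.7 in KSL Vav-Etv2 cells, but 82.3 to 99.0 in Gr controls and 63.9 to 101 in Gr Vav-Etv2 cells, so the Gr groups overlapped. Of the 10 markers, none was below background on every KSL array of either group, while 2 were for the Gr controls and 3 for the Gr Vav-Etv2 arrays. Igj, the J chain of secreted antibody, was at 6.09 in both KSL controls and at 1.25 and 4.09 in KSL Vav-Etv2 cells, and at 2.67 and -0.39 in Gr controls against -6.05 and -0.08 in Gr Vav-Etv2 cells. Tnfrsf17, a receptor of plasma cells, was at -1.62 and -1.60 in KSL controls and at -5.44 and -4.23 in KSL Vav-Etv2 cells, and was not well above background on any Gr array. Pou2af1, Slamf7, Irf4, Mzb1 and Prdm1, of the same list, had KSL differences of 1.43, 1.05, 0.97, 0.67 and 0.56. The 11 B lineage markers went the other way, with a summed level of 40.8 to 41.8 in KSL controls and 120 to 156 in KSL Vav-Etv2 cells, and 10 of 11 differences above 0.

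**Figure D3:**
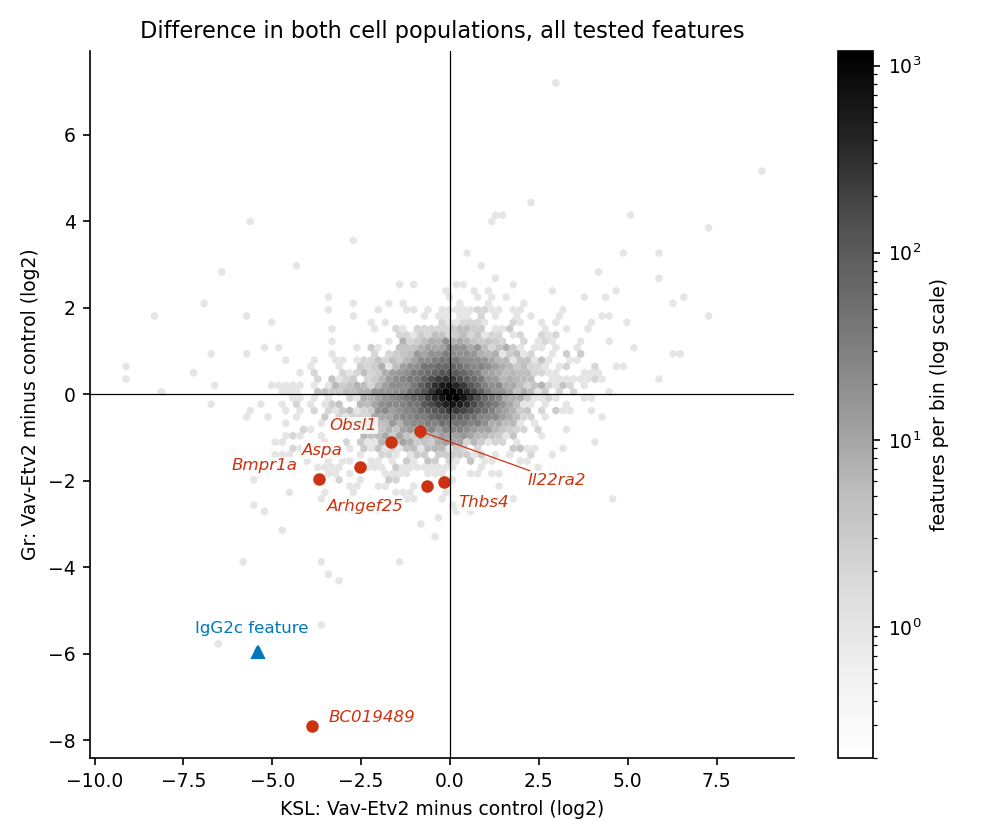
Difference between Vav-Etv2 and control (log2) in KSL cells, horizontal, and Gr cells, vertical, for all 23249 tested features as hexagonal bins shaded by the number of features on a log scale, with the 7 genes in red and the IgG2c feature as a blue triangle. BC019489, at -3.89 and -7.66, and IgG2c, at -5.42 and -5.95, lie far below the other 6 genes, Bmpr1a (-3.67) lies close to BC019489 on the KSL axis, and Thbs4 lies near 0 on the KSL axis.

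Ranked by the higher of the 2 differences, lowest first, so that a feature must be low in both populations to rank high, the genes measured in both populations were spread widely. The top 6 of 23249 features were all heavy chain features: Igh-VJ558, IgG2c, ENSMUST00000103420 (IgG1), BC019489 at rank 4, the IgG2b feature and ENSMUST00000103422 (IgG3). Bmpr1a ranked 25, Il22ra2 226 and Arhgef25 363, and Aspa, with only 1 Gr array well above background, ranked 41. Obsl1 and Thbs4, each without a measurable difference in 1 population, get no rank here. Igh-VJ558 stood at 8.48 and 8.42 in KSL controls, -2.25 and 6.30 in KSL Vav-Etv2 cells, 6.55 and 3.71 in Gr controls and -5.69 and 4.40 in Gr Vav-Etv2 cells. Its Gr groups overlapped, and its low Gr mean came from replicate 1. In KSL cells both Vav-Etv2 arrays lay below both controls, replicate 1 by far the more. These ranks use the contrast that chose the genes and are a description.

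Between the cell types, Arhgef25 and BC019489 were called higher in control KSL cells and Bmpr1a and Il22ra2 higher in control Gr cells. Obsl1, Thbs4 and Aspa also passed. Obsl1 and Thbs4 were each well above background in only 1 cell type, and Aspa on only 1 Gr array. They entered through the cell type in which they were high, so their differences are a description with no test. A call is a Benjamini-Hochberg adjusted p under 0.05 over all features in a limma fit to the 8 arrays. Of all tested features 34.7% were called in that comparison, 16.2% higher in KSL and 18.5% higher in Gr cells, so a call is common. With each array centred on its median, 2792 features were called higher in KSL and 4978 higher in Gr cells, beside 3769 and 4300 here, and the median difference over all features moved from -0.13 to -0.30, and from -0.10 to -0.24 among Vav-Etv2 arrays. The control differences of these genes were all larger than that shift, and every one kept its sign under all the alternatives run.

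Arhgef25 was 18.1-fold higher in control KSL than control Gr cells (log2 difference 4.18, SE 0.34, limma adjusted p = 0.00102) and, among Vav-Etv2 arrays, at least 23.9-fold higher in KSL than Gr cells (5.64, SE 0.34, limma adjusted p = 0.000985), calls it kept under every alternative run. Without the array labelled Gr control 2 the control difference was 3.88. Neither Gr Vav-Etv2 array was well above background for Arhgef25. With dim signals raised to the lowest well-above-background signal its Vav-Etv2 difference was 4.58 (limma adjusted p = 0.00106). Obsl1 was at least 5.95-fold higher in control KSL cells (difference 3.57, or 3.99 without the array labelled Gr control 2) and at least 1.81-fold higher among Vav-Etv2 arrays (3.03). Among Vav-Etv2 arrays 24.2% of features were called, 10.4% higher in KSL and 13.8% higher in Gr cells. With normexp background correction the Obsl1 differences were 0.87 and 0.36, and with dim signals raised to the lowest well-above-background signal the Vav-Etv2 difference was 0.86.

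BC019489 was 6.84-fold higher in control KSL than control Gr cells (2.77, SE 0.87), close to the threshold (limma adjusted p = 0.0472). That call was lost without the array labelled Gr control 2 (1.65, limma adjusted p = 0.151), without KSL control 1 or 2 (2.78 and 2.76, limma adjusted p = 0.155 and 0.162) and without either KSL Vav-Etv2 array (2.77, limma adjusted p = 0.0697). It was also lost with no filter on dim probes (limma adjusted p = 0.0719) and with only the compared arrays in the fit (limma adjusted p = 0.0591). Among Vav-Etv2 arrays BC019489 was at least 55.0-fold higher in KSL cells (6.54, limma adjusted p = 0.00453), and the IgG2c feature at least 9.93-fold. Neither Gr Vav-Etv2 array was well above background for either feature. With dim signals raised to the lowest well-above-background signal the BC019489 difference was 5.78 (limma adjusted p = 0.00283).

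Aspa was 6.37-fold higher in control KSL cells (difference 2.67, SE 0.59), a description, with 1 of 2 Gr controls well above background. The difference was 2.35 without that array, labelled Gr control 2. It was 2.81 and 2.53 without KSL control 1 or 2, and 0.94 with normexp correction. Among Vav-Etv2 arrays the Aspa difference was 1.83, with neither Gr array well above background, and it was 2.73 without KSL Vav-Etv2 array 2.

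Bmpr1a was 10.2-fold lower in control KSL than control Gr cells (-3.35, SE 0.75, limma adjusted p = 0.0169). It was at least 8.31-fold lower in Vav-Etv2 KSL than Vav-Etv2 Gr cells (-5.08, limma adjusted p = 0.00599), where both KSL values are surrogates. With dim signals raised to the lowest well-above-background signal that difference was -3.05 (limma adjusted p = 0.0263). The size of the control difference rests on the Gr controls, which lay far apart: it was -4.63 without the array labelled Gr control 2 and -2.07 without Gr control 1 (limma adjusted p = 0.00265 and 0.0155). The control call was lost without KSL control 1 or 2 (-3.19 and -3.52, limma adjusted p = 0.0926 and 0.0751) and with only the compared arrays (limma adjusted p = 0.0506), and the Vav-Etv2 call with normexp correction (-1.33, limma adjusted p = 0.129). Thbs4 was at least 1.71-fold lower in control KSL cells (difference -2.81, or -3.26 without the array labelled Gr control 2), and the difference was -0.43 with normexp correction and -0.77 with dim signals raised to the lowest well-above-background signal. No Vav-Etv2 array was well above background for Thbs4, so no difference between cell types can be read there.

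Il22ra2 differed by nearly the same amount in both genotypes, -1.55 among controls (2.93-fold lower in KSL, SE 0.32, limma adjusted p = 0.0136) and -1.56 among Vav-Etv2 arrays (2.94-fold, limma adjusted p = 0.0166). The control call was lost without KSL control 1 or 2 (-1.60 and -1.50, limma adjusted p = 0.0811 and 0.0911) and without Gr control 1 (-1.43, limma adjusted p = 0.0577), and was kept without the array labelled Gr control 2 (-1.67, limma adjusted p = 0.0216). The Vav-Etv2 call was lost without KSL Vav-Etv2 array 1 or 2 (-1.57 and -1.55, limma adjusted p = 0.0834 and 0.0757), with normexp correction (-0.79, limma adjusted p = 0.0631) and with only the compared arrays (limma adjusted p = 0.0552). A fit that leaves a group with 1 array assumes that this array varies like the other groups.

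**Figure D4:**
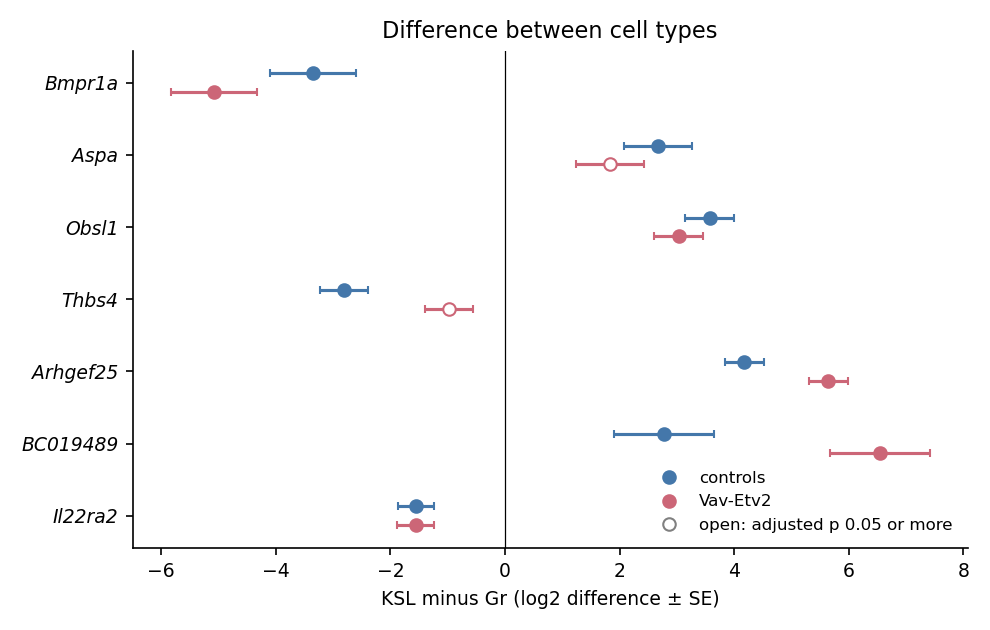
Difference between KSL and Gr cells (log2, KSL minus Gr, with limma's standard error as a bar) for the 7 genes, blue among controls and red among Vav-Etv2 arrays, filled where the adjusted p was under 0.05. Bmpr1a, Thbs4 and Il22ra2 lie left of 0 and the other 4 right of it in both genotypes, and the open points are Aspa and Thbs4 among Vav-Etv2 arrays. Obsl1 and Thbs4 were well above background in 1 cell type only, and Aspa on only 1 Gr array. The points of Obsl1, Thbs4 and Aspa are therefore a description with no test, filled or open.

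The size of the dim genes' differences depended on the background correction. Normexp correction with an offset of 50 adds that offset to every signal and so draws dim values together. Under it the KSL difference of Bmpr1a was -0.61, of Aspa -0.91 and of Obsl1 -0.62, that of Il22ra2 was -0.32, and that of Thbs4 was 0.06 and so above 0. In Gr cells it gave -1.40 for Bmpr1a, -0.16 for Aspa, -0.11 for Obsl1, -0.27 for Thbs4, -0.31 for Arhgef25 and -0.51 for Il22ra2. The KSL differences of BC019489 and Arhgef25, bright on all 4 KSL arrays, moved little, to -3.79 and -0.58, while the Gr difference of BC019489 went from -7.66 to -4.37. With dim signals raised to the lowest one flagged as well above background on that array, the KSL difference of Bmpr1a was -1.65, and the Gr differences of Aspa, Arhgef25, Thbs4 and Obsl1 were -0.39, -1.06, -0.91 and 0.07.

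The other genes of the 7 genes' pathways were followed through 10 lists with 139 entries, of which 106 were tested. The list of each of 6 genes holds the gene itself, which leaves 100 other genes. A listed gene that was well above background in only 1 cell type entered through it, so its call between cell types is a description. Of these, none passed the test between Vav-Etv2 and control in either population, where over all features 4 (0.0172%) passed in KSL and 2 (0.00860%) in Gr cells by limma. At an unadjusted p under 0.05 there were 12 of the 100 in KSL and 3 in Gr cells, beside 1723 and 297 of all 23249 features. In KSL cells 53 of the 100 lay above 0 and 47 below, with a median difference of 0.03, and in Gr cells 56 above and 44 below, with a median of 0.05.

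Of the BMP ligands, 6 of 14 were tested. Bmp4 was at -2.71 and -3.33 in KSL controls and at -4.41 and -4.54, not well above background, in KSL Vav-Etv2 cells (difference -1.45), and Bmp2 had a difference of 1.28 there, from 0.99 and -5.04 on the 2 Vav-Etv2 arrays, which lay on either side of both controls. Bmp7 was at -4.62 and -4.74 in Gr controls and at -6.08 and -6.64 in Gr Vav-Etv2 cells (difference -1.68), with only 1 of the 4 arrays well above background. Bmp4 and Bmp7 were called higher in control KSL than control Gr cells, at 1.48 and 2.50 (limma adjusted p = 0.0275 and 0.00292).

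Of the BMP receptors and co-receptors, 9 of 11 were tested. Bmpr1a had the lowest difference of the list in both populations, but it was chosen for low differences, so this place supports nothing. Bmpr2, the type II receptor that Bmpr1a works with, was at -0.04 and 0.08 in KSL controls and at -0.72 and -0.80 in KSL Vav-Etv2 cells (difference -0.78), and it differed by -0.05 in Gr cells. Rgmb, a co-receptor, was at -2.82 and -3.50 in KSL controls and at -5.41 and -5.52, not well above background, in KSL Vav-Etv2 cells (difference -2.31), and by -0.09 in Gr cells. The other type I receptors Acvr1 and Acvrl1 differed by 0.57 and 0.04 in KSL and by 0.71 and -0.09 in Gr cells. The type II receptors Acvr2a and Acvr2b differed by 0.30 and -0.29 in KSL and by 0.09 and 0.35 in Gr cells, the co-receptor Eng by 0.23 and 0.50, and Rgma by 0.17 and -0.16. Between the control cell types, Eng and Acvr2b were called higher in KSL cells (3.87 and 2.94, limma adjusted p = 0.00183 and 0.0101). Acvrl1 was called higher in Gr cells with Bmpr1a (-4.37, limma adjusted p = 0.0129). Rgmb was called higher in Gr cells among Vav-Etv2 arrays (-2.30, limma adjusted p = 0.00657), with a control difference of -0.09.

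Of the Smads, Smad1, Smad5, Smad4, Smad6 and Smad7 were tested and their differences lay between -0.99, for the inhibitory Smad6, and 0.30 in KSL cells and between 0.07 and 0.36 in Gr cells. Smad5 and Smad6 were called higher in control KSL cells (1.89 and 2.30, limma adjusted p = 0.0248 and 0.0422). Of the antagonists, 7 of 16 were tested, with the largest differences for Nog (0.76) and Fst (-0.65) in KSL cells and for Fstl1 (0.67) and Fst (-0.60) in Gr cells. Fst in KSL cells and Fstl1 in Gr cells were not well above background on any array. Among controls Fstl1 and Twsg1 were called higher in KSL cells and Nog, Fst and Fstl3 higher in Gr cells.

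Of the BMP target genes, 6 of 9 were tested and did not move together. Hey1 was at -3.52 and -3.72 in KSL controls and at -5.71 and -6.27, not well above background, in KSL Vav-Etv2 cells (difference -2.37), and was not well above background on any Gr array. Id3 was at -1.85 and -1.78 in KSL controls and at -0.07 and 0.45 in KSL Vav-Etv2 cells, a difference of 2.01 in the other direction. Id1 differed by -0.29 and -0.46, and Id2 by 0.51 and 0.15, in KSL and Gr cells. Among controls Id1, Id2 and Msx1 were called higher in Gr cells (-3.36, -3.00 and -2.27, limma adjusted p = 0.00379, 0.00155 and 0.0249), as Bmpr1a was, and Id3 was called higher in KSL cells among Vav-Etv2 arrays (1.98, limma adjusted p = 0.0261).

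**Figure D5:**
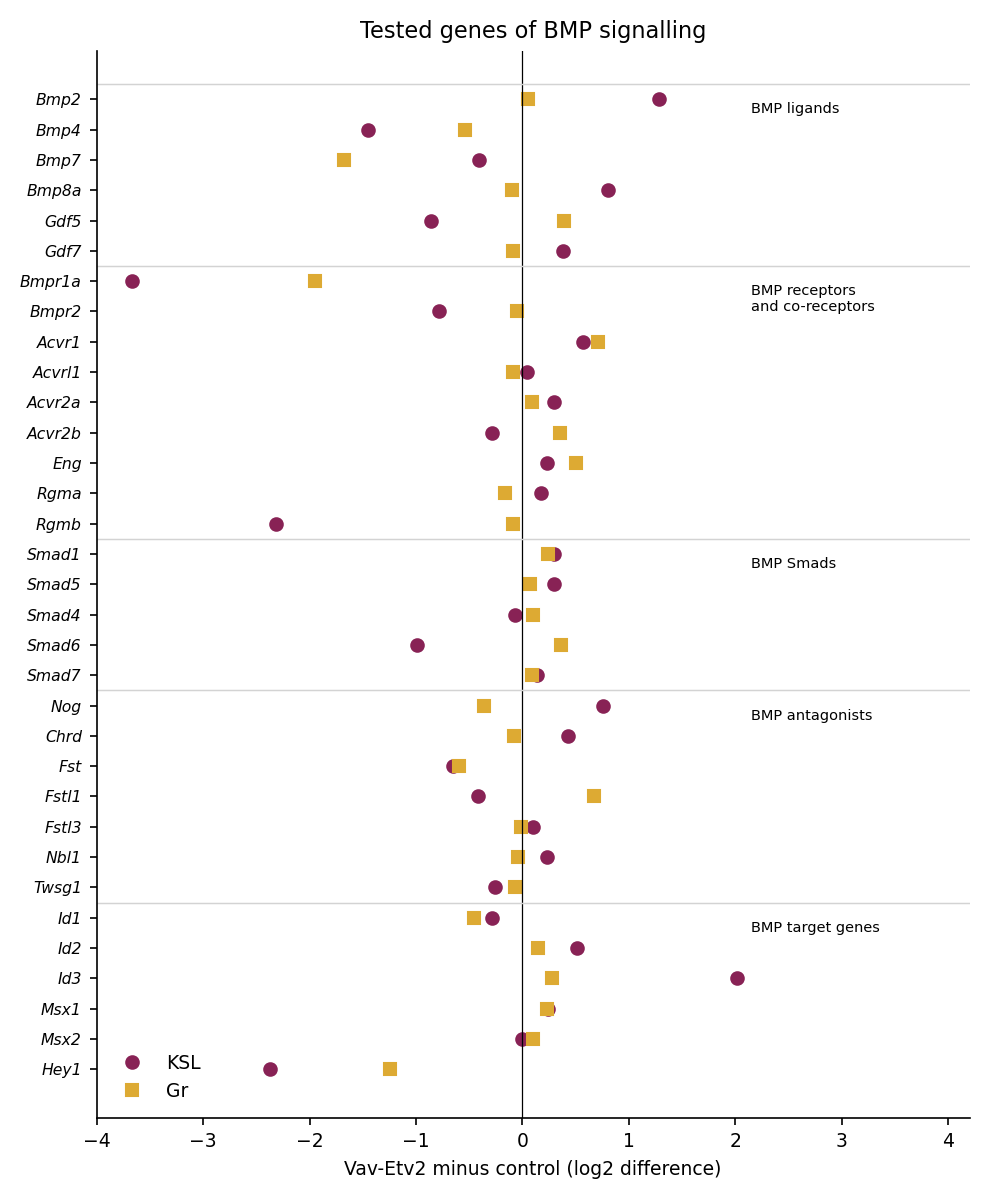
Difference between Vav-Etv2 and control (log2) for the 33 tested genes of BMP signalling, purple circles for KSL and yellow squares for Gr cells, grouped as ligands, receptors and co-receptors, Smads, antagonists and target genes. Bmpr1a, chosen for its low differences, lies farthest left in both populations, at -3.67 and -1.95. In KSL cells Hey1 (-2.37) and Rgmb (-2.31) come next while Id3 (2.01) lies farthest right.

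Around Il22ra2, 15 of 16 genes of the IL-10 cytokine family and its receptors were tested. Il22 itself was dim, at -3.37 and -4.09 in KSL controls and -4.60 and -3.91 in KSL Vav-Etv2 cells, and differed by 0.24 in Gr cells. Il22ra1, the surface receptor for IL-22, was not well above background on any KSL array and differed by -0.10 in Gr cells, and Il10rb, its partner chain, differed by -0.38 and 0.01. The largest KSL differences were 1.54 for Tyk2 and 1.32 for Il10ra, and the largest in Gr cells after Il22ra2 was 0.43 for Il10ra. Among controls Il10 and Il20ra were called higher in KSL cells (2.22 and 4.91, limma adjusted p = 0.00574 and 0.00286), and Il10ra, Il20 and Il28ra joined Il22ra2 in being called higher in Gr cells. Among Vav-Etv2 arrays Il20rb and Stat3 were called higher in Gr cells too.

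Around Obsl1, the 3M partners Cul7 and Ccdc8 differed by -0.07 and 0.18 in KSL and by 0.42 and -0.02 in Gr cells. Both were called higher in control KSL than control Gr cells, at 3.50 and 1.98 (limma adjusted p = 0.00140 and 0.0134). Cul9, a relative of Cul7, was also higher there (3.65) and differed by -0.86 in KSL cells, and Ttn, a giant muscle protein that binds obscurin family members, was higher in control Gr cells (-1.78) and differed by -0.73 in Gr cells.

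Around Thbs4, 11 of 12 thrombospondins and receptors were tested. Thbs1, at 7.48 and 4.52 in Gr controls and 6.55 and 4.30 in Gr Vav-Etv2 cells, differed by -0.58 there and was called higher in control Gr than control KSL cells (-3.70, limma adjusted p = 0.0351). Cacna2d1, a calcium channel subunit that binds thrombospondins, was not well above background in KSL controls, at -6.18 and -6.57, and was at -2.99 and -2.18 in KSL Vav-Etv2 cells (difference 3.79). Cd36, a scavenger receptor for thrombospondin, had a KSL difference of 1.32, and Lrp1, an endocytic receptor, had a Gr difference of 1.02, with controls at 0.60 and 2.91. Sdc4 was called higher in control KSL and Itgav higher in control Gr cells. Among Vav-Etv2 arrays Cacna2d1 was called higher in KSL cells and Lrp1 higher in Gr cells (3.86 and -3.46, limma adjusted p = 0.00504 and 0.0200).

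Around Arhgef25, 31 of 34 exchange factors, small GTPases and their neighbours were tested, 17 below 0 in KSL and 14 below 0 in Gr cells. Arhgef28 had the largest KSL difference of the list, from 0.32 and 0.61 in controls to -2.33 and -3.29 in Vav-Etv2 cells (-3.28), followed by Arhgef26 (-2.07), whose controls lay far apart at -6.31 and -1.56, and in Gr cells Arhgef37 came after Arhgef25, at 0.94. Among controls Arhgef5, Arhgef40, Arhgef28, Arhgef10, Arhgef12 and Arhgef16 were called higher in KSL cells along with Arhgef25, with differences from 1.84 to 6.65. The GTPases Rhoa, Rhoc, Rac1, Rac2 and Cdc42, the Gq subunit Gnaq, the kinase Rock1 and the exchange factors Arhgef6, Arhgef10l, Arhgef11 and Arhgef15 were called higher in Gr cells, with differences from -3.80 to -1.04. Among Vav-Etv2 arrays Kalrn was also called higher in KSL cells and Arhgef1 and Arhgef37 higher in Gr cells.

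Around Aspa, 9 of 13 genes of N-acetylaspartate metabolism were tested. Nat8l, which makes N-acetylaspartate, differed by -0.45 in KSL and -0.17 in Gr cells and was called higher in control Gr cells (-2.56, limma adjusted p = 0.0159), opposite to Aspa. Acy3, a relative of Aspa, differed by -0.49 and 1.01 and was called higher in control KSL cells (4.27, limma adjusted p = 0.00126), where Aspa was higher too. Acy1 and Acss2 had KSL differences of 1.17 and -0.97, and Acy1 was called higher in KSL cells among Vav-Etv2 arrays (3.18, limma adjusted p = 0.0352). Acss1, which turns acetate into acetyl-CoA in mitochondria, differed by 0.81 in Gr cells and was higher in control KSL cells (2.02), while Slc13a3, a carrier for N-acetylaspartate, and Got1 were higher in control Gr cells (-2.70 and -1.40).

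Markers of other cell types differed between the groups as well, and their part in the 6 genes other than BC019489 was not tested. Of 13 T and NK cell markers, 11 lay below 0 in KSL cells and 12 in Gr cells, with medians of -0.53 and -0.49. Their summed level was 63.8 to 64.1 in KSL controls and 51.4 to 62.9 in KSL Vav-Etv2 cells, and 36.5 to 53.9 in Gr controls and 24.5 to 35.4 in Gr Vav-Etv2 cells. Of the erythroid markers 7 of 10 lay below 0 in KSL and 8 of 10 in Gr cells, and their summed level was 76.9 to 77.6 in KSL controls against 43.1 to 54.9 in KSL Vav-Etv2 cells. The stem cell markers summed to 345 to 374 in KSL controls and 283 to 303 in KSL Vav-Etv2 cells, with 10 of 12 below 0. Of the 13 mature neutrophil markers 12 lay below 0 in KSL cells, with a median of -1.80, and their summed level was 1740 to 1830 in KSL controls and 278 to 1860 in KSL Vav-Etv2 cells, which overlapped. In Gr cells they summed to 6110 to 13500 in controls and 6150 to 11700 in Vav-Etv2 cells. Of 10 mast cell, basophil and eosinophil markers 7 lay below 0 in KSL and 9 in Gr cells, with medians of -0.12 and -0.87, and their summed level in Gr cells was 7.54 to 129 in controls and 7.66 to 68.4 in Vav-Etv2 cells. Of 12 monocyte and macrophage markers 11 lay above 0 in KSL and 10 in Gr cells, with medians of 0.65 and 0.66, and summed levels of 37.5 to 41.0 in controls and 62.1 to 84.2 in Vav-Etv2 KSL cells and of 134 to 219 and 183 to 283 in Gr cells. Endothelial markers were higher in KSL cells, with a summed level of 89.6 to 92.1 in controls and 136 to 448 in Vav-Etv2 cells and 11 of 13 differences above 0, and none of these lists had a gene past the test between Vav-Etv2 and control.

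For each gene the tested feature with the most alike pattern was the one with the highest Pearson correlation of levels over the 8 arrays, a description that the 4 groups of arrays largely set. Bmpr1a was most like ENSMUST00000085967 (r = 0.989) and Mysm1 (0.986), a histone deubiquitinase, and Thbs4 was most like Tmem184a (0.981) and 4930529F24Rik (0.966). Arhgef25 was most like ENSMUST00000107431 (0.997) and Acot6 (0.995), and Obsl1 like AK041390 and Btbd11 (both 0.991). Aspa was most like 5830408B19Rik (0.971) and Nxnl2 (0.965), and Il22ra2 like ENSMUST00000058133 (0.975) and 1700012L04Rik (0.971). BC019489 was most like Abat (0.983) and Ccl5 (0.975), a chemokine of T and NK cells that was at 2.91 and 2.81 in KSL controls and 1.91 and 1.67 in KSL Vav-Etv2 cells. In Gr cells Ccl5 was at 2.13 and 1.18 in controls and at 0.37 and -0.22 in Vav-Etv2 cells.

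Because Etv2 is an ETS factor, which binds DNA around the letters GGAA, the 250 bases before the transcription start were read where RefSeq promoter sequence on build GRCm38.p6 was at hand, for Bmpr1a, Aspa, Obsl1 and Thbs4. GGAA and the longer forms CCGGAA, CCGGAAGT and ACAGGAA, each of which contains GGAA, were searched on both strands. GGAA alone is so short that 93.4% of all 32851 promoters of this length held it, with a median of 3 matches. Bmpr1a held 3 matches, Aspa 1, Obsl1 2 and Thbs4 7. None of the 4 held a longer form, which 12% (CCGGAA), 2.88% (CCGGAAGT) and 7.20% (ACAGGAA) of all promoters did, and nothing follows from these letters about binding. The windows of Bmpr1a and Aspa are shown because their base content differs most, 78.8% G and C with 36 CpG pairs against 38.8% with 2, beside a median of 52.4% over all. Capitals mark GGAA, or TTCC where it lies on the other strand. Bmpr1a is chr14:34502547-34502796 and Aspa chr11:73324638-73324887, both on the minus strand.
Bmpr1a: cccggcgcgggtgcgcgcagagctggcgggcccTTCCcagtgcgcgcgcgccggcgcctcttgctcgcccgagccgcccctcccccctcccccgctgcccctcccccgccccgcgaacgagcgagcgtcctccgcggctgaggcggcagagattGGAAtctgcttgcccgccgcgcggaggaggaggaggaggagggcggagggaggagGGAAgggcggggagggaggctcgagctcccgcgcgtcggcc
Aspa: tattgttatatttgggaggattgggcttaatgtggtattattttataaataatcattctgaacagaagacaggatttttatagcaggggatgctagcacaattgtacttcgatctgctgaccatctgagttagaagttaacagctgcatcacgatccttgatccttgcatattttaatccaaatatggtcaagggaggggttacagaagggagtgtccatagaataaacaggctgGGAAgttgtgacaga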

How the data were processed

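The 8 deposited array files hold Cy3 intensity values (processed signal, its error, mean spot signal and local background), extracted with Agilent Feature Extraction 10.7.3.1 per the file headers, where the processed signal is background-subtracted, detrended and replaced by a surrogate near background. Other deposited columns are flags for outliers, saturation, surrogates and signal well above background, per the file headers. A deposited table holds log2 values, in which each probe was centred within each cell type: 99.8% of them lay within 0.01 of values recomputed here, so it served only as an alternative within a cell type. Probe positions are those of the files, on mm9.

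Non-uniform spots and control spots were left out, repeat spots averaged, and log2 processed signals were reduced by each array's 75th percentile. Features well above background on at least 2 of 8 arrays were tested, with the probe of highest mean level per gene name. limma 3.58.1 (R 4.3.3, with version 1.17.8 of data.table) was fitted to 4 groups of 2 arrays, with 4 residual and 2.77 prior degrees of freedom, and was tested on simulated data. The number of arrays limits the precision. Python 3.11.15 with pandas 2.3.3 and numpy 2.4.6 did the rest.

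The genes, lists and tests were chosen with earlier results of these data known. Named are the 7 genes, list genes called in any comparison, the 2 largest differences per list and population, all receptors of the BMP list, the 2 most alike features, the top shifts, and Kit, Ly6a, Itgam and Etv2. Genes named beside BC019489 or Camp were chosen after their values were seen. Of the list symbols, 2 matched through a synonym and 1, Ly6g, did not match. The result of 1 listed gene is not reported here. Alternatives changed the scaling, background correction, filter, floor, probe, block, arrays fitted and arrays left out.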

Additional observations from a re-analysis of the deposited data

How the results depend on the processing

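The replicate numbers of the Gr arrays went together (r = 0.658 between the replicate differences of controls and Vav-Etv2 over all features), those of the KSL arrays did not (0.068), and 2 pairs are too few to pair samples. With a replicate block over all arrays, 4 features passed in KSL and 0 in Gr cells between Vav-Etv2 and control (384 at an unadjusted p under 0.05), 9389 between control cell types and 6839 between Vav-Etv2 cell types. With a replicate block for the Gr arrays, the counts were 67, 1, 12860 and 11345.

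Features passing between Vav-Etv2 and control in KSL cells numbered 4, and 27 with median centring, 50 with quantile normalisation, 16 with normexp, 10 with raised dim signals and 0 with features well above background on all 8 arrays (945 at an unadjusted p under 0.05). Leaving out 1 array gave 0 (KSL control 2) to 37 (KSL Vav-Etv2 array 2). In Gr cells they numbered 2, and 0 with normexp, 1 with no filter, 1 with each probe by itself, 0 with features well above background on all 8 arrays and 0 with only the compared arrays (78, 447, 423, 114 and 159 at an unadjusted p under 0.05). Leaving out 1 array gave 0 to 2, with 0 and 1940 at an unadjusted p under 0.05 without the array labelled Gr control 2. Between cell types, leaving out 1 array gave 2217 to 9389 among controls and 2250 to 7284 among Vav-Etv2 arrays, lowest without KSL control 2 and without KSL Vav-Etv2 array 1. Of the 7 genes, 6 were lower in both populations with no overlap (1.75% of all tested features were), 3 with normexp, and 6 to 7 without 1 array. The share over all features is given for the main setting only. The choice of genes fixed these counts, and leaving out an array can only keep or raise them, so they support nothing. The Vav-Etv2 minus control differences of the 7 genes kept their sign in 124 of 126 alternatives. The exceptions were Obsl1 in Gr cells (0.07 with raised dim signals) and Thbs4 in KSL cells (0.06 with normexp), both values of probes not above background. The choice of genes fixed the starting sign, and leaving out an array cannot change it where groups do not overlap. The deposited values are nearly those used here, so this count is a description and supports nothing. Of 240 alternatives of the cell-type fits of the 7 genes, 212 kept the call or its absence, 26 lost and 2 gained it, and 0 reversed. This count includes Obsl1, Thbs4 and Aspa, whose differences between cell types are a description, so it is no measure of how firm the calls are. The filter on all 8 arrays left only Il22ra2 of the 7 genes. The causes were not tested. Signal over background limits Thbs4, Obsl1, Aspa, KSL Bmpr1a and the size of the Gr differences of Arhgef25 and BC019489.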
